A study of Homo sapiens with 6 samples.

Results

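Serine, one-carbon and asparagine synthesis genes are 10 enzyme genes (PHGDH, PSAT1, PSPH, SHMT1, SHMT2, MTHFD1, MTHFD2, MTHFD1L, ALDH1L2 and ASNS), taken by name from the 22481 genes of the count table. All 10 were among the 15387 genes tested, and each had at least 10 counts in every library. Poly(A) RNA-seq measured them in 143B, an osteosarcoma cell line of human origin. Gene positions come from RefSeq (GRCh38.p14). The study compared 3 wells given celastrol, a triterpene, for 24 h with 3 control wells grown for the same 24 h. Before that, 500000 cells per well had grown for 24 h in 6-well plate format. The labels give no dose of celastrol, do not say whether control wells received a vehicle, and name no other treatment or genetic change. Each library is 1 well, so p-values measure the spread between wells, possibly all of 1 plate, which may be technical.

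Serine is made from the glycolytic intermediate phosphoglycerate in a chain of reactions catalysed by PHGDH, PSAT1 and PSPH. The SHMT enzymes move a carbon unit from serine to tetrahydrofolate, and the MTHFD enzymes interconvert the carbon-carrying folates and release or use formate, with a cytosolic and a mitochondrial set of enzymes. Purine, thymidylate and methionine synthesis use these carbon units, and tumour cells are known to run the mitochondrial set at high rates. ASNS makes asparagine from aspartate and glutamine. Several of these genes are known targets of ATF4, a transcription factor of the amino acid stress response, and ASNS is a classic one.

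Library totals ran from 38408143 to 39453778 counts, with 18778 to 18948 genes detected. The limit set by 0 counts in a library (3 counts) is 0.0747 to 0.079 CPM (counts scaled to a common library size), for counting error only. RUNX2, a transcription factor of the osteoblast lineage, was read at 17.3 to 18.7 CPM in celastrol wells and 30.5 to 35.8 CPM in control wells. It was called lower with celastrol (log2 fold change -0.9 ± 0.1 SE, adjusted p = 1.15e-06, edgeR's quasi-likelihood test). The mesenchymal gene VIM stood at 2500 to 2590 CPM in celastrol wells and 3280 to 3560 CPM in control wells (log2 -0.42 ± 0.048, adjusted p = 1.48e-06, same test). COL1A1, a collagen gene, was called higher, at 11.3 to 14.8 CPM in celastrol wells and 7.19 to 10.1 CPM in control wells (log2 0.66 ± 0.16, adjusted p = 0.00209). The matrix genes SPARC and SPP1 overlapped between the groups and were not called, with SPARC at 350 to 376 CPM in celastrol wells and 304 to 414 CPM in control wells. ALPL was called lower, at 0.964 to 1.79 CPM in celastrol wells and 2.52 to 3.53 CPM in control wells (log2 -1.18 ± 0.29, adjusted p = 0.00279, same test). Of 10 listed osteoblast and mesenchymal genes, 6 were tested, with 1 called higher and 3 lower. These are 16.7% and 50%, against 23.6% and 24.8% of all genes tested. The part of these differences in the results was not tested. The osteoblast genes SP7 and BGLAP and the collagen gene COL1A2 had at most 6, 1 and 2 counts in any library. The epithelial cadherin gene CDH1 and the leukocyte gene PTPRC had at most 1 and 6 counts. The keratin gene KRT18 was not called, at 899 to 977 CPM in celastrol wells and 953 to 974 CPM in control wells. KRT8, another keratin gene, was called lower (log2 -0.24 ± 0.054, adjusted p = 0.0013, same test). It stood at 300 to 317 CPM in celastrol wells and 359 to 365 CPM in control wells. EPCAM, at 5.71 to 7.14 CPM over both groups, was not called. Of 5 listed epithelial genes 3 were tested, with 0 called higher and 1 lower (33.3%). Of 4 listed endothelial genes only KDR was tested, and it was called lower, at 54 counts or fewer. CD14, the only 1 of 5 listed blood genes that was tested, had 25 counts or fewer. It was not called (log2 1.73 ± 0.77, adjusted p = 0.0723, edgeR's quasi-likelihood test).

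Upstream sequence was at hand for 7 of the 10 genes, from RefSeq on GRCh38.p14, as the 250 bases before an annotated start. PSPH, SHMT2 and ALDH1L2 have no entry. The windows below are those of the 5 called genes with an entry (PHGDH, PSAT1, MTHFD1, MTHFD2 and ASNS) and of MTHFD1L, shown because ASNS and MTHFD1L hold the letters TGATGNAA. Those letters are the core of the C/EBP-ATF response element (CARE), to which ATF4 binds together with C/EBP proteins, and capitals mark them. Each sequence is written 5′ to 3′ on the strand of its gene.
ASNS (chr7:97872409-97872658, minus strand): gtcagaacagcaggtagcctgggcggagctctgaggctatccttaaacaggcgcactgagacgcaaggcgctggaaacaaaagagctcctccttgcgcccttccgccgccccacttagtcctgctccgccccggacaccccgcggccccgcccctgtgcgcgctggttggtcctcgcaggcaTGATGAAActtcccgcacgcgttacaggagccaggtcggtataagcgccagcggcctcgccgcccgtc
MTHFD1L (chr6:150866236-150866485, plus strand): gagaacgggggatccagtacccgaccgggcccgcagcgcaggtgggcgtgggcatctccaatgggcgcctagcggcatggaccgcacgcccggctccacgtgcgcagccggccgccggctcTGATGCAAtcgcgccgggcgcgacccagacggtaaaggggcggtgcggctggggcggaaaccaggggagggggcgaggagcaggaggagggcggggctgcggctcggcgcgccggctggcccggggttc
PHGDH (chr1:119711684-119711933, plus strand): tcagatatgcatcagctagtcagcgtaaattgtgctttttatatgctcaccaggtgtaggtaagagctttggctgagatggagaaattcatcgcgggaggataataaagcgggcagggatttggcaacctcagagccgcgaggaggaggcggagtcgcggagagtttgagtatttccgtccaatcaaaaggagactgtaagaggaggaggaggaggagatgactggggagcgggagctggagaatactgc
PSAT1 (chr9:78296875-78297124, plus strand): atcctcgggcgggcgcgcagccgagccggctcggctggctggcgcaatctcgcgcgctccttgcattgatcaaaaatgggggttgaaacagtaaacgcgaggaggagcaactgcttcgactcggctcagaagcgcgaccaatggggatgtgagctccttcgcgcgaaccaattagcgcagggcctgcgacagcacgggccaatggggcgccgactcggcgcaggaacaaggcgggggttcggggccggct
MTHFD1 (chr14:64388103-64388352, plus strand): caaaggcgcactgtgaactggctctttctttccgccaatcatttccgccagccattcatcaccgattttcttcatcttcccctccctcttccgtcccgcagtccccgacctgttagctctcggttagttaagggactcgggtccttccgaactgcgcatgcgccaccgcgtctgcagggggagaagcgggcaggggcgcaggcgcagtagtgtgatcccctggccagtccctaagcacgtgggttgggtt
MTHFD2 (chr2:74198365-74198614, plus strand): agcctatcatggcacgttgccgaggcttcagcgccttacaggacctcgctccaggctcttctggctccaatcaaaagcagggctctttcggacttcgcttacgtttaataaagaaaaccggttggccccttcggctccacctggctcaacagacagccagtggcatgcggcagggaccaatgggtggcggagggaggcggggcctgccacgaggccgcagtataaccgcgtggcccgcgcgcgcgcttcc

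Searched on both strands, the CARE letters were in the upstream window of at least 1 start in 2 of the 7 genes, and in 3.89% of the 27305 genes with a window. In ASNS they read TGATGAAA and began 68 bases before the annotated start at which the window shown ends. In MTHFD1L they read TGATGCAA and began 129 bases before the annotated start at which the window shown ends. The windows shown for ASNS and MTHFD1L lie inside the RefSeq spans of these genes given below, so neither start is the outermost end of its gene. ASNS has 2 annotated windows, of which the other lacks these letters, and MTHFD1L has 4, of which 2 hold them at the same genomic position and 2 lack them. The E-box letters CACGTG, which MYC family proteins bind, were in MTHFD1 and MTHFD1L among the 7 genes and in 7.73% of all genes with a window. The antioxidant response element letters TGACNNNGC, which NRF2 binds, were in 0 of the 7 genes and in 13.2% of all. A match is a description of the letters and does not show a bound site, and no match says only that the letters are not in this window.

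Of the 10 genes, 7 were higher with celastrol, 1 was lower and 2 were not called (edgeR's quasi-likelihood test, Benjamini-Hochberg adjusted over all 15387 genes, adjusted p under 0.05). Over all genes tested, 23.6% were called higher and 24.8% lower, or 48.4% in either direction. The 10 genes had a median log2 fold change of 0.35, against 0 over all genes tested. The CPM of the groups did not overlap in 9 of the 10 genes, 8 of them higher and 1 lower with celastrol. Over all genes tested, 28.4% were higher and 28.6% lower without overlap. Together the 10 genes took 0.627% ± 0.0603 of all counts in celastrol wells and 0.479% ± 0.0295 in control wells (SD, n = 3). PHGDH alone accounted for 67.7% of these counts in celastrol wells and 69.5% in control wells. All these values are shares of a library, and they show neither the number of cells nor the RNA per cell. More RNA of these genes and less of the other RNA cannot be told apart.

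**Figure D1:**
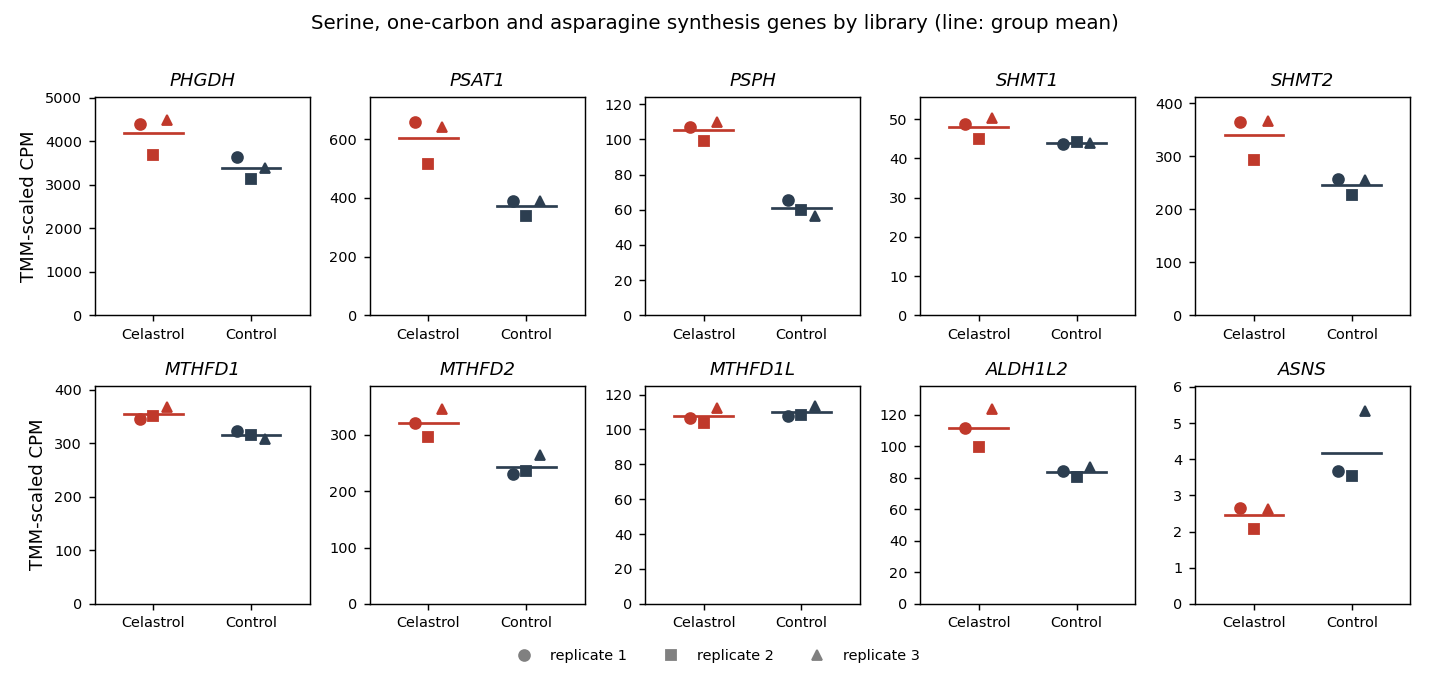
TMM-scaled CPM of each of the 10 genes (y axis, from 0) in the 3 celastrol and 3 control libraries, with 1 marker shape per replicate number and a line at the group mean. All 3 celastrol wells lie above all 3 control wells in 8 genes and below them in ASNS, and the groups overlap in MTHFD1L.

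All 3 enzymes of serine synthesis rose, the last by the most. PHGDH, phosphoglycerate dehydrogenase, which opens the pathway (NCBI gene 26227, chromosome 1, 119711934 to 119744215), had 4395, 3686 and 4485 TMM-scaled CPM in celastrol replicates 1, 2 and 3, against 3629, 3127 and 3388 CPM in control replicates 1, 2 and 3. The lowest celastrol well stood just above the highest control well. The log2 fold change was 0.31 ± 0.072 (SE), or 1.24-fold (adjusted p = 0.00267). PSAT1, phosphoserine aminotransferase (gene 29968, chromosome 9, 78297125 to 78330093), had 660, 515.6 and 641.2 CPM in celastrol wells and 389.7, 340 and 391.1 CPM in control wells. Its groups lay well apart although celastrol replicate 2 was below the other two, and it was 1.62-fold higher (log2 0.70 ± 0.086, adjusted p = 1.92e-05). PSPH, phosphoserine phosphatase, which releases serine (gene 5723, chromosome 7, 56011064 to 56051444), had 106.7, 99.1 and 110 CPM in celastrol wells and 65.7, 59.84 and 56.64 CPM in control wells. With wells close together in both groups, it was 1.73-fold higher, the largest rise among the 10 (log2 0.79 ± 0.074, adjusted p = 1.72e-07). The 95% intervals of the log2 fold change were 0.16 to 0.46 for PHGDH, 0.51 to 0.88 for PSAT1 and 0.64 to 0.95 for PSPH.

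The serine hydroxymethyltransferases split the serine side chain and load its carbon onto folate. SHMT2, the mitochondrial enzyme (gene 6472, chromosome 12, 57229711 to 57234935), had 364, 292.3 and 367.4 CPM in celastrol wells and 257.7, 227.8 and 255 CPM in control wells. All celastrol wells were above all control wells, and SHMT2 rose 1.38-fold (log2 0.47 ± 0.080, adjusted p = 0.000184). SHMT1, the cytosolic enzyme (gene 6470, chromosome 17, 18327873 to 18363550), had 48.7, 44.83 and 50.22 CPM in celastrol wells and 43.68, 44.23 and 44.02 CPM in control wells. These groups did not overlap either, by a narrow margin at celastrol replicate 2, but the gene did not pass the test (log2 0.12 ± 0.080, 95% interval -0.04 to 0.29, adjusted p = 0.21).

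Downstream of SHMT2 in mitochondria, 2 of the 3 folate enzymes rose. MTHFD2, a methylene-tetrahydrofolate dehydrogenase and cyclohydrolase (gene 10797, chromosome 2, 74198615 to 74217565), had 320.4, 296.6 and 346.4 CPM in celastrol wells and 230.1, 236.6 and 264.5 CPM in control wells. The groups stood apart, at 1.32-fold higher with celastrol (log2 0.40 ± 0.068, adjusted p = 0.000118). ALDH1L2, which oxidises formyl-tetrahydrofolate (gene 160428, chromosome 12, 105019790 to 105084458), had 111.7, 99.66 and 123.8 CPM in celastrol wells and 84.22, 80.75 and 86.95 CPM in control wells. Its control wells were close together, its celastrol wells more spread, and it rose 1.33-fold (log2 0.41 ± 0.077, adjusted p = 0.000266). MTHFD1L, which releases formate from formyl-tetrahydrofolate (gene 25902, chromosome 6, 150865702 to 151101887), had 106.5, 103.6 and 112.6 CPM in celastrol wells and 107.8, 108.3 and 113.3 CPM in control wells. The groups overlapped and the gene was not called (log2 -0.03 ± 0.064, 95% interval -0.16 to 0.11, adjusted p = 0.732); the sign turned to 0.01 with library size alone and on log2 FPKM with either pseudocount.

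In the cytosol, MTHFD1, a single protein with the ligase, cyclohydrolase and dehydrogenase activities (gene 4522, chromosome 14, 64388353 to 64460025), had 346.2, 350.8 and 367.7 CPM in celastrol wells and 322.2, 315.4 and 307.7 CPM in control wells. The groups did not overlap, and the rise was the smallest of the 7, at 1.13-fold (log2 0.17 ± 0.055, adjusted p = 0.0155). Without celastrol replicate 3 the call was lost (adjusted p = 0.106), in a range of 0.00345 to 0.106 over 18 alternatives.

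ASNS, asparagine synthetase (gene 440, chromosome 7, 97851677 to 97928441), was the one member that fell, and it was read at the lowest level. Its counts were 107, 82 and 103 in celastrol wells and 141, 134 and 205 in control wells, or 2.664, 2.076 and 2.613 CPM in celastrol wells and 3.664, 3.528 and 5.324 CPM in control wells. The groups did not overlap, and control replicate 3 stood above the other control wells. The log2 fold change was -0.77 ± 0.23 (95% interval -1.26 to -0.28, adjusted p = 0.0115). Without control replicate 3 the call was lost (log2 fold change -0.55, adjusted p = 0.0909). ASNS had 5 annotated pseudogenes in RefSeq, and 44.6% of its annotated exon bases in GENCODE 29 also belong to a gene on the same strand, AC079781.5.

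In RefSeq the readthrough gene CZ1P-ASNS spans 99.4% of the ASNS gene, and the table counts it as a separate gene. CZ1P-ASNS had 100, 102 and 116 counts in celastrol wells and 112, 85 and 92 in control wells. These were about as many as those of ASNS itself in celastrol wells, and fewer than those of ASNS in each control well. Its groups overlapped and it was not called (log2 0.09 ± 0.24, adjusted p = 0.789). With both genes summed, the counts were 207, 184 and 219 in celastrol wells and 253, 219 and 297 in control wells. The summed counts of the groups met at 219, and the log2 fold change of -0.38 did not pass (adjusted p = 0.0769, in a range of 0.00692 to 0.0909 over the 17 alternatives that test ASNS). The sources used here do not say how reads in the shared exons were counted, so the level and the fall of ASNS are uncertain.

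**Figure D2:**
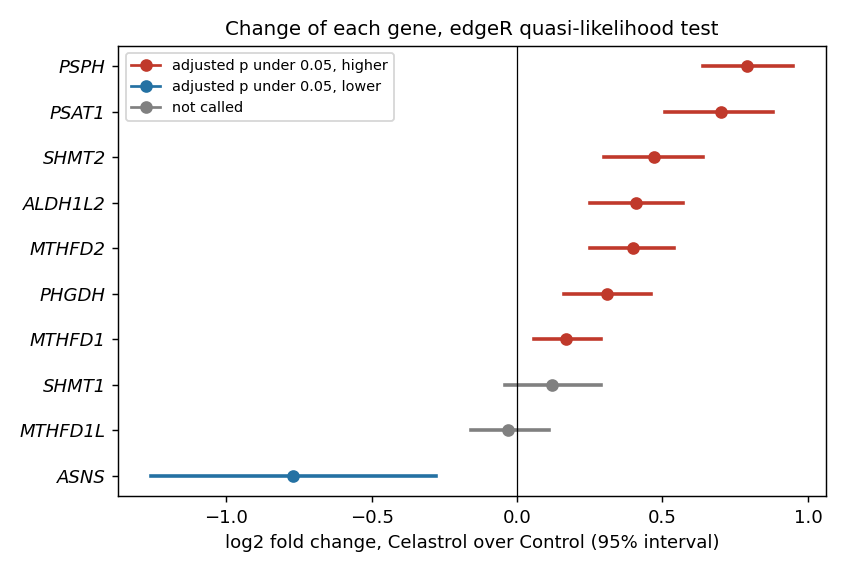
Log2 fold change of each gene, Celastrol over Control (x axis), with its 95% interval from edgeR's quasi-likelihood test, ordered from PSPH at the top to ASNS at the bottom. The intervals of 7 genes lie above 0 and that of ASNS, the widest, lies below 0, while those of SHMT1 and MTHFD1L include 0.

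Within the celastrol group, replicate 2 was the lowest of the 3 wells in 9 of the 10 genes, and in MTHFD1 replicate 1 was. Over all genes tested, celastrol replicate 2 was the lowest in 36.5%. Replicate 3 was the highest celastrol well in 8 of the 10. Without celastrol replicate 2 the same 7 genes were called higher, with a log2 fold change of 0.39 for PHGDH, 0.80 for PSAT1, 0.84 for PSPH and 0.57 for SHMT2. ASNS was still called lower without it (-0.66, adjusted p = 0.0482). In control wells replicate 2 was the lowest in 5 of the 10 genes.

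Levels of different genes are set side by side here per gene length, in FPKM. PHGDH stood highest at 555.5 ± 57 FPKM in celastrol wells and 435.8 ± 32.9 FPKM in control wells (SD, n = 3), rank 96 and rank 116 of 22481 genes. PSAT1 followed at 278.4 ± 35.9 FPKM in celastrol wells and 166.8 ± 12.5 FPKM in control wells. Next came SHMT2, at 129.4 ± 15.9 FPKM in celastrol wells and 90.91 ± 5.91 FPKM in control wells, and MTHFD1, at 114.1 ± 3.05 FPKM in celastrol wells and 98.44 ± 2.95 FPKM in control wells. This pair overlapped in both groups of wells, with SHMT2 first on average in celastrol wells and MTHFD1 first in control wells. All other neighbours in the order stood apart in both groups. MTHFD2 had 73.55 ± 5.41 FPKM in celastrol wells and 54.23 ± 3.65 FPKM in control wells, and PSPH had 31.79 ± 1.6 FPKM in celastrol wells and 17.82 ± 1.46 FPKM in control wells. SHMT1, ALDH1L2 and MTHFD1L lay between 8.204 and 18.04 FPKM on average in celastrol wells and between 8.138 and 16.09 FPKM in control wells, and ASNS was lowest at 0.7686 ± 0.102 FPKM in celastrol wells and 1.27 ± 0.294 FPKM in control wells.

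These levels rest on the gene lengths behind the FPKM values, which ran from 2206 bases for PSAT1 to 13295 bases for MTHFD1L. With the summed exons of GENCODE 29 as the length (5021 bases for MTHFD1L), an alternative chosen after seeing the data, PHGDH and PSAT1 were still on top, followed by SHMT2, and ASNS was last. MTHFD1L then stood at 21.7 in celastrol wells and 21.5 in control wells on the same scale, above SHMT1 at 6.67 in celastrol wells and 5.95 in control wells. MTHFD2, at 66.9 in celastrol wells and 49.3 in control wells, stood above MTHFD1 in both groups, the reverse of their order in FPKM. The order of the 6 genes between SHMT2 and ASNS, and in control wells that of SHMT2 and MTHFD1, therefore depends on the annotation.

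**Figure D3:**
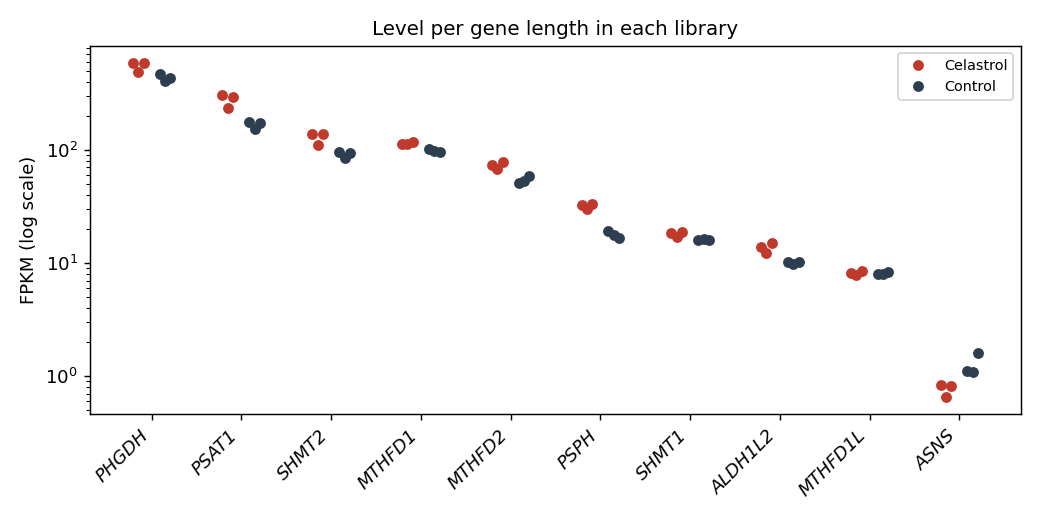
FPKM of each gene (y axis, log scale) in the 3 celastrol and 3 control libraries, with genes ordered by their mean in celastrol wells. PHGDH and PSAT1 lie above 100 FPKM in every library and ASNS below 2.

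The mitochondrial enzymes were set against their cytosolic counterparts as ratios of FPKM within each library, with 1 further ratio inside mitochondria, making 4 ratios added after the data were seen. SHMT2 over SHMT1 was 7.53, 6.57 and 7.37 in celastrol wells and 5.94, 5.18 and 5.83 in control wells. Every celastrol well was above every control well, a log2 difference of 0.34 (two-sided exact permutation p = 0.1, adjusted over the 4 ratios p = 0.133). MTHFD2 over MTHFD1 was 0.659, 0.603 and 0.671 in celastrol wells and 0.509, 0.535 and 0.612 in control wells, where celastrol replicate 2 fell below control replicate 3 (log2 difference 0.23, exact permutation p = 0.2, adjusted p = 0.2). MTHFD1L over MTHFD1 was lower in every celastrol well, at 0.073, 0.0701 and 0.0727 in celastrol wells and 0.0794, 0.0815 and 0.0873 in control wells (log2 difference -0.20, exact permutation p = 0.1, adjusted p = 0.133). Within mitochondria, MTHFD2 over MTHFD1L was 9.03, 8.6 and 9.24 in celastrol wells and 6.41, 6.56 and 7.01 in control wells (log2 difference 0.43, exact permutation p = 0.1, adjusted p = 0.133). The size of each ratio rests on the gene lengths behind FPKM, and with GENCODE 29 lengths MTHFD2 over MTHFD1 lies above 1, but lengths cancel in the log2 differences. With 3 wells against 3 the smallest p this test can give is 0.1, so none of the 4 could pass 0.05.

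**Figure D4:**
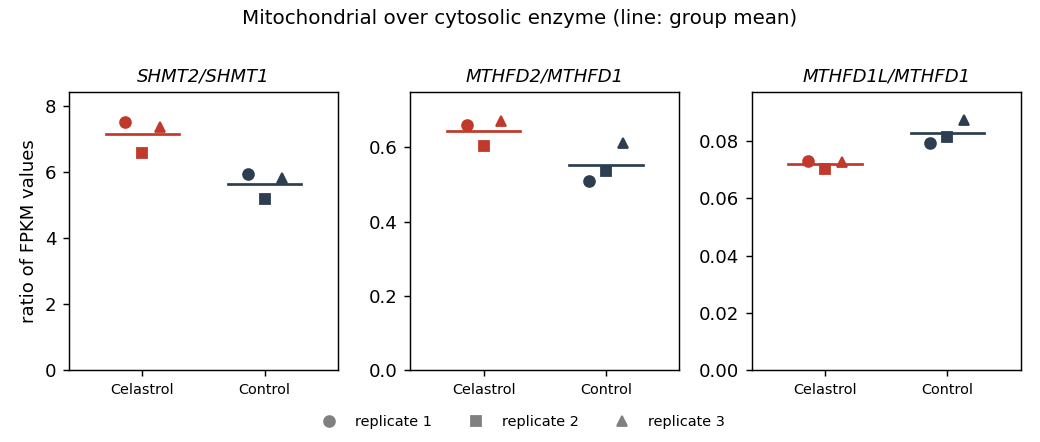
Ratio of the FPKM of a mitochondrial enzyme gene to that of its cytosolic counterpart (y axis, from 0) in each library, with a line at the group mean. SHMT2 over SHMT1 is 6.57 to 7.53 in celastrol wells and 5.18 to 5.94 in control wells, and MTHFD1L over MTHFD1 is lower in all 3 celastrol wells.

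Exons of other genes overlap some of the 10 on the opposite strand. In GENCODE 29 this holds for 33.2% of MTHFD2 exon bases, of which SLC4A5 and AC006030.1 share some, for 11% of MTHFD1, 9.51% of SHMT2, 2.69% of SHMT1 and 1.7% of ALDH1L2. SLC4A5 was itself counted at 11 to 31 reads per library, against 8856 or more for MTHFD2, and ZBTB25, opposite MTHFD1, at 572 to 1052. SMCR8, opposite SHMT1, had 3856 to 6069 counts per library, more than SHMT1 at 1680 to 1980. RefSeq lists pseudogenes of 6 of the 10 genes, among them 7 of MTHFD2 and 4 of PSAT1, and no source used here says to which copy shared reads were given.

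Other enzymes and carriers of folate metabolism changed in both directions. Of 22 listed, 21 were tested, 6 were called higher (28.6%) and 3 lower (14.3%), with a median log2 fold change of 0.14. MTFMT, which formylates the mitochondrial initiator methionine, fell by 0.41 in log2 terms (SE 0.12, adjusted p = 0.0118), a call lost without control replicate 3 (adjusted p = 0.0913). The other 2 called lower were under a mean log2 CPM of 2.

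In the methionine cycle and transsulfuration, 9 of 12 listed genes were tested, with 3 higher and 2 lower (33.3% and 22.2%) and a median of 0.02. MAT2A, a subunit of methionine adenosyltransferase, had 323.3, 307.2 and 319.7 CPM in celastrol wells and 250.4, 198 and 195.2 CPM in control wells (log2 0.56 ± 0.080, adjusted p = 2.84e-05). Its regulatory subunit MAT2B was higher too (log2 0.43 ± 0.069, adjusted p = 6.13e-05). AHCY, which hydrolyses adenosylhomocysteine, fell by 0.18 on the log2 scale (adjusted p = 0.00768), and the related AHCYL1 fell by 0.72 (adjusted p = 2.99e-08).

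All 12 listed genes of de novo purine synthesis, which takes up formyl groups from folate, were tested, and 3 were higher and 1 lower (25% and 8.33%), with a median of 0.09. PFAS, a synthase of the middle of the pathway, had 177.6, 157.7 and 172.4 CPM in celastrol wells and 113.3, 78.96 and 76.49 CPM in control wells (log2 0.92 ± 0.15, adjusted p = 0.00137). ADSL, adenylosuccinate lyase, with 18.9% of its exon bases shared with a gene on the same strand, rose by 0.41 on the log2 scale (adjusted p = 0.000144), and PRPS2, which makes phosphoribosyl pyrophosphate, fell by 0.43 (adjusted p = 0.000307). The count of higher genes was 5 with library size alone and 5 without control replicate 1, and 7 by limma on log2 FPKM.

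Of 24 enzymes of neighbouring amino acids and serine carriers, 21 were tested, with 7 higher and 7 lower (33.3% each) and a median of 0.01. PYCR3, an enzyme of proline synthesis, had 24.92, 21.59 and 18.01 CPM in celastrol wells and 11.36, 7.74 and 6.701 CPM in control wells (log2 1.32 ± 0.18, adjusted p = 1.68e-05). SFXN2, a member of the sideroflexin family of mitochondrial carriers, rose by 0.71 on the log2 scale (adjusted p = 0.00203). Of those that fell and had a mean log2 CPM of 2 or more, the largest falls were in ASS1, which joins aspartate to citrulline (log2 fold change -0.78, adjusted p = 8.99e-05), and GLUL, glutamine synthetase (-0.51, adjusted p = 6e-06).

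Among 17 genes known to regulate these enzymes, 7 were higher and 3 lower, with a median of 0.11. These are 41.2% and 17.6%, against 23.6% and 24.8% of all genes tested. ATF4 had 735.5, 679.2 and 807.7 CPM in celastrol wells and 523.2, 477.8 and 537.8 CPM in control wells. Its groups did not overlap, and it rose 1.44-fold (log2 0.53 ± 0.065, adjusted p = 4.05e-06). In ATF4, as in ATF5, KEAP1 and MYC below but not in EIF2AK4, celastrol replicate 2 was the lowest celastrol well. ATF5, a related transcription factor of which 21.2% of exon bases overlap genes on the other strand, rose 3.92-fold (log2 1.97 ± 0.14, adjusted p = 8.58e-09). KEAP1, which restrains the antioxidant factor NRF2, rose 1.98-fold (adjusted p = 1.02e-08). NFE2L2, which encodes NRF2, was called higher too (log2 0.22 ± 0.07, adjusted p = 0.0137, edgeR's quasi-likelihood test). MYC, known to drive serine and folate enzymes in tumour cells, had 15.34, 11.59 and 16.74 CPM in celastrol wells and 30.25, 32.09 and 39.53 CPM in control wells, with no overlap (log2 fold change -1.22 ± 0.13, adjusted p = 1.81e-06). The amino acid sensing kinase gene EIF2AK4, which encodes GCN2, fell by 0.29 on the log2 scale (adjusted p = 0.00246).

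**Figure D5:**
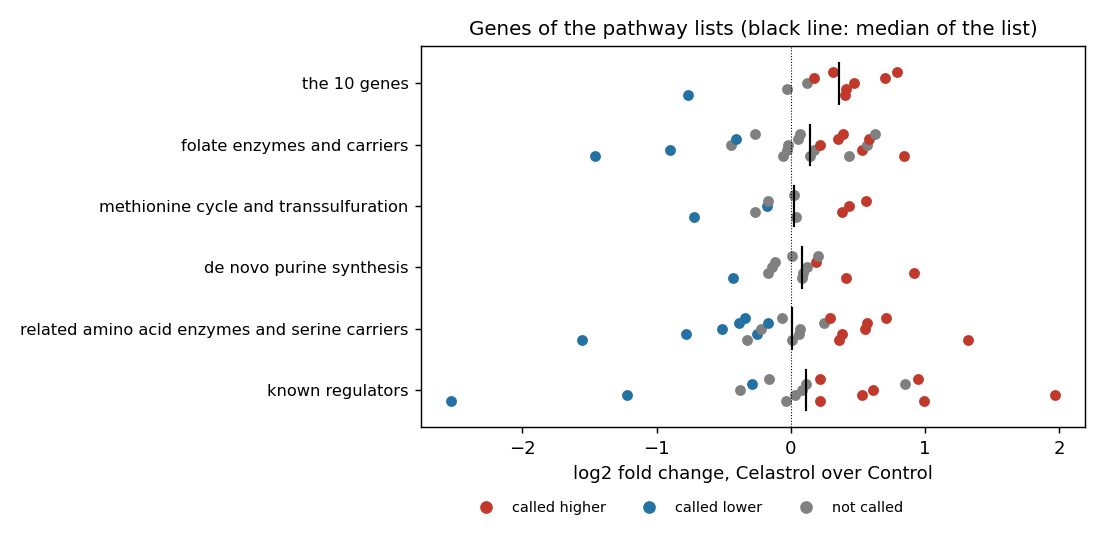
Log2 fold change, Celastrol over Control (x axis), of each tested gene in the 10 enzyme genes and in 5 further lists, coloured by its call in edgeR's quasi-likelihood test, with a black line at each median. The median is 0.35 for the 10 genes and between 0.01 and 0.14 for the other lists, and each of the 6 groups holds genes called in both directions.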

How the data were processed

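Poly(A) RNA of 6 wells of 143B cells was sequenced as 150-base read pairs after 8 PCR cycles with a strand-marking protocol, per the labels' protocols. The submitters' processing notes name HISAT2 2.2.1, cutadapt 1.9, StringTie 2.1.6, edgeR and DESeq2, and hg38 as the build. No source used here gives the role of each tool, the annotation release or whether counting used the strand. Raw read counts per gene are what the authors deposited as their count table. The authors' FPKM values match those counts: dividing them gave 1 length per gene across libraries, within 1e-06, for each of 20198 genes.

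From the counts, genes were filtered with filterByExpr, scaled by TMM and tested with edgeR 4.0.16 in R 4.3.3 (quasi-likelihood test, robust dispersion, Benjamini-Hochberg adjustment). The code was also run on simulated data, which checks the code and not the calls given here. A gene was called at an adjusted p under 0.05, the SE is the absolute log2 fold change over the root of F, and group values are mean ± SD. Between libraries of 1 group, chi-square divided by its degrees of freedom was 6.49 to 20.9, above sampling noise. Alternatives used other scalings and filters, DESeq2 1.42.0, limma 3.58.1 (voom, or log2 of FPKM plus 1 or 0.1), a replicate block, fewer libraries, and ASNS summed with CZ1P-ASNS.

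The 10 genes and all lists were chosen with earlier results of these data known. Beside the 10, ATF4, MYC, CZ1P-ASNS, NFE2L2 and the cell type markers, the genes named with values followed a rule. They were, per list and direction, the 2 largest called changes at a log2 CPM of at least 2, and genes whose exons overlap one of the 10. Some genes that this rule names among the folate enzymes are not reported here. No list was tested as a set.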

Additional observations from a re-analysis of the deposited data

How the results depend on the processing

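All 18 alternatives kept PHGDH, PSAT1, PSPH, SHMT2, MTHFD2 and ALDH1L2 called higher and left SHMT1 uncalled. Over 14 counts of calls, 233 of 252 values stayed within 1.5 times. The 10 genes held 0 called lower with at least 10 CPM required in 3 libraries, where ASNS is not tested, and 0 with ASNS and CZ1P-ASNS summed. Leaving out 1 library gave 6 to 7 higher and 0 to 1 lower of the 10, 1 to 3 folate genes lower, 3 to 5 purine genes higher and 1 to 3 lower, and 3 to 5 regulators lower. With at least 10 CPM required, 1 folate gene and 2 purine genes were lower. Purine genes called higher were 5 with library size alone and 7 by limma on log2(FPKM + 1) or log2(FPKM + 0.1), and 2 were lower with upper quartile scaling. Without celastrol replicate 2 and control replicate 1, 3 purine genes and 5 regulators were lower. The cause of these shifts was not tested. MTHFD1L was 0.01 in place of -0.03 with library size alone and by limma on both FPKM scales.

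By the labels, same-numbered wells are linked only by a number, and whether they were handled as pairs is not known. Their correlation of deviations from the group mean was 0.03 to 0.06, and that of other pairs -0.06 to 0.01. Each well was highest with its own number. With the replicate block, 3831 genes were called higher and 3928 lower, against 3634 and 3815 without it; purine genes were 5 higher and 2 lower, and the calls of the 10 genes did not change. ASNS, at 82 to 205 counts per library, is the member whose value depth limits most.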
